A study of Callithrix jacchus with 39 samples.

Results

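Broad H3K4me3 domains of the marmoset genome, defined here as regions of 4000 bp or more, were described across 8 tissues. In each tissue the H3K4me3 peaks that overlapped a peak of the other replicate by at least 1 bp were kept, and the single heart library was taken as it stood. The kept peaks were then merged over the 8 tissues, and 390 of the 23039 merged regions, or 1.69%, reached 4000 bp. The domains were chosen by their H3K4me3 length alone, so H3K4me3 values are given as a description with no test. H3K27ac was not used in the choice and was tested.

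H3K4me3 is a histone methylation placed at active or poised promoters, usually as a narrow peak at the transcription start. Broad H3K4me3 domains are the widest of these peaks, and they have been described at genes that mark the identity of a cell type. H3K27ac, an acetylated histone tail, marks enhancers and promoters in use. A stretch that carries both marks is usually read as an active promoter, and H3K4me3 without H3K27ac also occurs at promoters that are silent or little used.

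The series profiled both marks by ChIP-seq in liver, colon, stomach, pancreas, kidney, spleen, heart and skeletal muscle of Callithrix jacchus, the common marmoset. There were 16 H3K27ac and 15 H3K4me3 libraries, 2 per tissue and mark, and the missing number is heart H3K4me3 replicate 1, not analysed here. All are untreated whole tissues, and the labels used here give no age, sex or strain and leave unstated which animals the replicates came from. The p-values below therefore measure the spread between tissues in these samples. The tests treat the tissues as independent units, although all tissues were scored on the same merged regions, so the p-values may overstate the evidence. A mark of a minor cell type cannot be told apart from a weak mark of the whole tissue. How deeply the libraries were sequenced is unknown, and a missing peak means only that none was called. The H3K4me3 lists held 16386 to 24424 peaks and the H3K27ac lists 24590 to 51554. Replicates differed most in H3K4me3 of skeletal muscle and pancreas, where replicate 1 covered 12.8 Mb in each and replicate 2 covered 25.1 Mb and 23.9 Mb. Positions are given on the build calJac3. No genome or annotation of that build was used here, so no domain is assigned to a gene and no sequence is shown.

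The domains were of moderate length, with few very long members. Their median length was 4485 bp, with quartiles of 4193 and 4957 bp, against a median of 1364 bp over all merged regions. A length of 5 kb or more was reached by 90 domains and 6 kb or more by 28, and the longest measured 10945 bp. The domains summed to 1.84 Mb, which is 5.21% of the merged H3K4me3 length. In 284 of the 390 an unbroken H3K4me3 region of at least 4000 bp was found within 1 tissue. The other 106 reached this length only because peaks of several tissues were joined, and their longest unbroken piece went down to 2608 bp. A single peak of 4000 bp or more in at least 1 library was present in 228 domains. The domains nearest to the threshold were 4000 bp on chromosome 4 (144961840 to 144965839) and 4002 bp on chromosome 1 (179426091 to 179430092). The regions just below it, shorter by 1 and 2 bp, were on chromosome 9 (90648119 to 90652117) and on chromosome 16 (49390712 to 49394709). The lengths on either side differ by a few base pairs, so the threshold separates no natural classes. The second region of each pair shows how unlike neighbours at the threshold can be: the domain of chromosome 1 had H3K4me3 in pancreas alone, whereas the shorter region of chromosome 16 had it in all 8 tissues.

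Most domains carried H3K4me3 in every tissue but were wide in few of them. H3K4me3 was present in all 8 tissues in 271 domains (69.5%), against 45.6% of all merged regions, and in 1 tissue in 27 domains (6.92%), against 20.7%. In regions of 2 to 4 kb the shares were 76.1% and 6.10%, so presence in every tissue was not higher in the domains than in the next shorter class. Longer merged regions meet more tissues by construction, so these shares are read only as a description. The number of tissues with a cover of at least 4000 bp was 1 in 210 domains, 2 in 42, 3 in 25 and 4 in 19. It was 0 in 68 domains, where no tissue alone reached the threshold, and 7 domains reached it in all 8. In the 271 domains present everywhere, the broadest tissue covered a median of 4289 bp and the narrowest 1915 bp. The median ratio of broadest to narrowest was 2.258, and it exceeded 3 in 80 domains.

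Liver carried the widest H3K4me3, and the place of colon above kidney rested on 1 library. The median cover per domain was 3553 bp in liver, 3262 bp in colon, 3020 bp in kidney, 2763 bp in pancreas, 2753 bp in stomach and 2530 bp in skeletal muscle. Spleen, with 1917 bp, and heart, with 1866 bp, were the narrowest. A cover of 4000 bp or more was found for 147 domains in liver, 122 in colon, 98 in kidney, 73 in pancreas, 66 in stomach, 62 in skeletal muscle, 28 in spleen and 14 in heart. The domains held a similar share of each tissue's map, from 4.53% of the H3K4me3-covered length in stomach to 5.14% in kidney. The domains held a smaller share of the H3K27ac map, from 2.66% in liver to 4.10% in kidney.

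**Figure D1:**
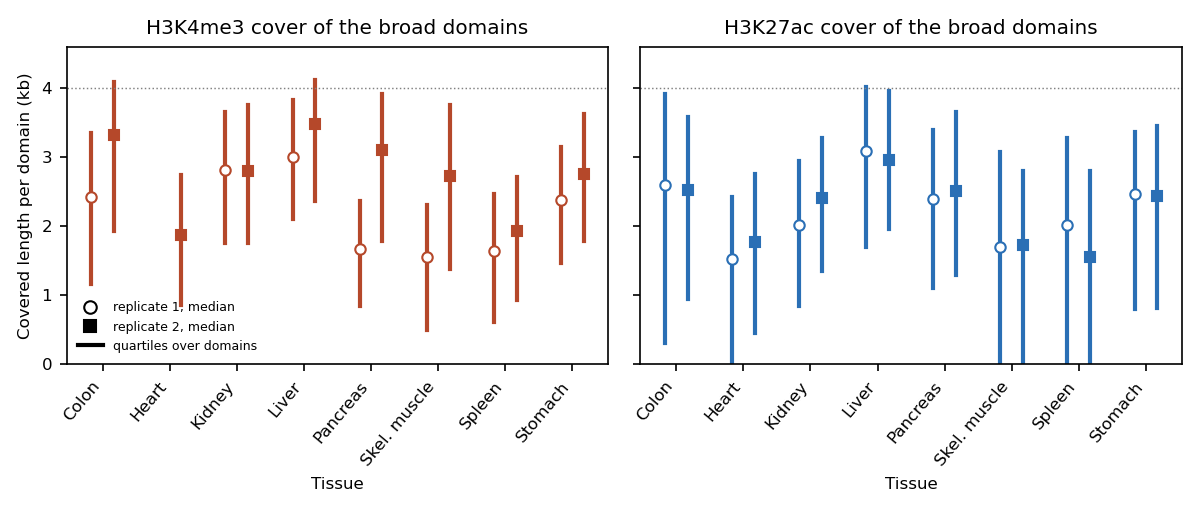
Covered length per broad domain in kb, by tissue, for H3K4me3 (left) and H3K27ac (right). Symbols are medians over the 390 domains in 1 library, open for replicate 1 and filled for replicate 2, bars are quartiles, and the dotted line is 4 kb. Replicate 1 of pancreas and skeletal muscle lies far below replicate 2 for H3K4me3 and not for H3K27ac.

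The replicates did not give the same width in every tissue. In pancreas the median H3K4me3 cover per domain was 1671 bp in replicate 1 and 3103 bp in replicate 2, and in skeletal muscle 1558 bp and 2726 bp. Kidney, with 2814 bp and 2799 bp, was the closest pair. Colon had 2419 bp and 3328 bp, liver 3011 bp and 3480 bp, stomach 2374 bp and 2756 bp, and spleen 1638 bp and 1930 bp. The number of domains covered over 4000 bp or more in every library of the tissue was 64 in liver, 48 in kidney, 38 in colon, 29 in stomach, 14 in heart, 9 in spleen, 5 in pancreas and 4 in skeletal muscle. The wide cover of pancreas and skeletal muscle therefore rested on replicate 2. So did the lead of colon over kidney, since colon had 41 domains of this cover in replicate 1 and 116 in replicate 2, and kidney 63 and 72. Replicate 2 had the higher number in every tissue with 2 H3K4me3 libraries, also in liver (73 and 127), stomach (32 and 57) and spleen (14 and 27). Peaks of either replicate were kept, so the wider replicate can set the width of a domain. H3K27ac differed less in pancreas, with medians of 2394 bp and 2514 bp, and in skeletal muscle, with 1694 bp and 1729 bp. It also differed less in colon, liver and stomach. In kidney, with 2011 bp and 2403 bp, and in spleen, with 2011 bp and 1551 bp, H3K27ac differed more than H3K4me3.

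Where domains were broad in more than 1 tissue, colon and stomach had the highest number shared divided by the number in either. Of the domains with at least 4000 bp of H3K4me3, 50 were common to both, which is 41.0% of those in colon and 75.8% of those in stomach. The number shared divided by the number in either was 0.362 for this pair. Colon and liver shared 51, which is 41.8% of colon and 34.7% of liver, with 0.234 by the same measure. Heart and skeletal muscle, both striated muscle, shared 11 of the 14 in heart and of the 62 in skeletal muscle, with 0.169. Heart shared 11 with each of colon, kidney, liver and stomach as well. Of the spleen domains of this width, 82.1% were shared with liver. The measure is held low where 2 tissues have unlike numbers of such domains. Shorter regions cannot hold such a cover, so these values describe the domains with no comparison class beside them.

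Nearly all of the domains carried H3K27ac somewhere. None of the 390 was free of H3K27ac peaks in all 16 libraries, against 8.52% of all merged regions, and 1 had no H3K27ac that recurred between replicates in any tissue. H3K27ac was reproducible in all 8 tissues in 208 domains (53.3%), against 31.9% of all merged regions. Regions of 2 to 4 kb had 1.03% without any H3K27ac peak and 58.2% with it in all 8 tissues. A longer region meets an H3K27ac peak more easily, so these shares were not tested. Within a window of equal size, the central 300 bp, H3K27ac was found in all 8 tissues in 119 domains (30.5%), against 29% of all merged regions. It was found in no tissue in 14 domains (3.59%), against 18.4%. Regions of 2 to 4 kb had 50.4% and 4.15% by these measures, so the domains were lower in the first and near to them in the second. The median H3K27ac cover per domain was 3252 bp in liver, 2796 bp in colon, 2660 bp in pancreas, 2609 bp in stomach and 2347 bp in kidney. Spleen had 1872 bp, heart 1777 bp and skeletal muscle 1741 bp. H3K27ac was longer than H3K4me3 in 23.6% of the domains marked in kidney and in 54.2% of those marked in spleen, the lowest and highest shares.

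H3K27ac covered more of the H3K4me3-marked bases in broad domains than in the merged regions under 4000 bp. The share of H3K4me3 bases also under reproducible H3K27ac of the same tissue was 75.01 ± 5.85% in broad domains and 67.6 ± 6.35% in shorter regions (SD, n = 8 tissues). Broad domains were higher by 7.40 ± 3.21 percentage points, with 8 of 8 tissues positive (exact permutation test, p = 0.00781, adjusted p = 0.00938). All tests here are two-sided, flip the sign of each tissue's difference in every way, and are adjusted over 6 results. The value 0.00781 is the smallest that 8 tissues allow. Liver had the highest share in broad domains, 84.0%, and skeletal muscle the lowest, 66.2%. The difference did not hold against regions of similar width. With regions of 2 to 4 kb as the comparison it was 0.31 ± 2.02 points (SD, n = 8), and the exact permutation test gave p = 0.672 before and after adjustment.

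Beyond their ends, broad domains had more H3K27ac than shorter regions. Of the bases within 10 kb on each side and outside any merged H3K4me3 region, 3.22 ± 1.48% lay under H3K27ac next to broad domains and 1.67 ± 0.83% next to shorter regions (SD, n = 8). The difference was 1.55 ± 0.72 points, positive in 8 of 8 tissues (exact permutation test, p = 0.00781, adjusted p = 0.00938). The highest flanking shares were 5.99% in liver and 4.66% in colon, the lowest 1.14% in heart. Against regions of 2 to 4 kb the difference was 1.41 points (exact permutation test, n = 8, adjusted p = 0.0117). In the average profile H3K4me3 around broad domains dropped from 59.3% of domains covered at 1.62 kb from the centre to 3.75% at 3.12 kb. H3K27ac went from 51.6% to 10.8% over the same distance and was still 5.45% at 5.12 kb, where H3K4me3 was 1.94%. H3K27ac was also above H3K4me3 around regions of 2 to 4 kb, with 2.27% and 0.96% at 5.12 kb. The ends of all these regions were set by H3K4me3 and not by H3K27ac, so H3K4me3 drops past them by construction. The further reach of H3K27ac is therefore a description and was not tested.

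**Figure D2:**
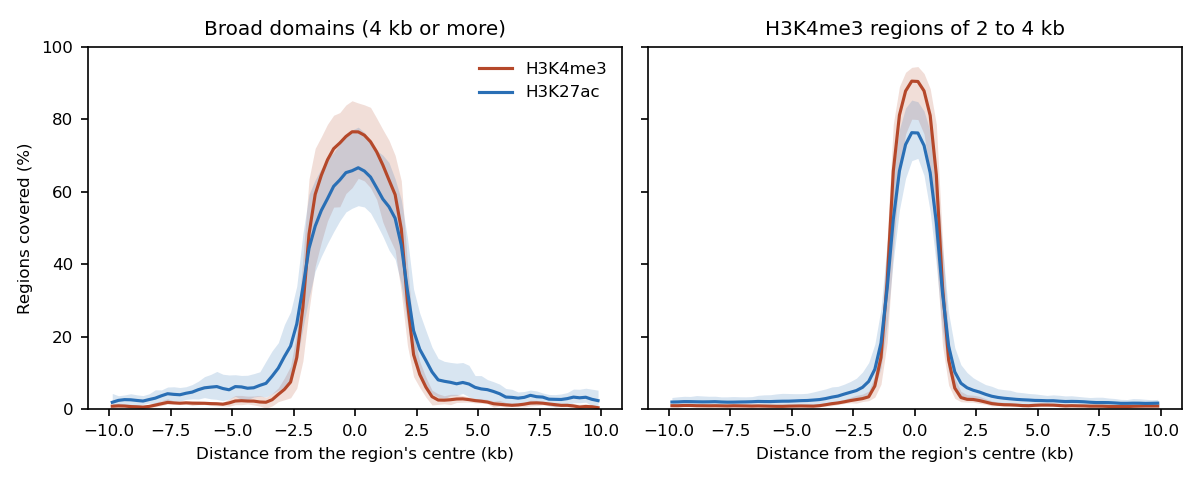
Share of regions covered (%) against the distance from the region's centre (kb), for broad domains (left) and merged H3K4me3 regions of 2 to 4 kb (right). Lines are means of 8 tissues, each over the regions that carry H3K4me3 in it, and bands run from the lowest to the highest tissue. H3K27ac reaches further out than H3K4me3 in both panels, and the ends of the regions were set by H3K4me3 alone.

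At the centre of the merged domain H3K27ac was not more frequent. The central 300 bp met H3K27ac of the same tissue in 72.1 ± 6.58% of broad domains and 71.3 ± 5.82% of shorter regions, a difference of 0.84 ± 4.68 points, positive in 4 of 8 tissues (SD, n = 8). The exact permutation test gave p = 0.602 before and after adjustment. The result depended on where the centre was set. At the centre of the longest H3K4me3 piece of the tissue itself, a choice made after the data were examined, the shares were 82.8 ± 3.67% and 72.4 ± 5.67%. The difference was then 10.5 points, positive in 8 of 8 tissues (exact permutation test, n = 8, p = 0.00781). With this centre, domains were compared with all shorter regions and not with those of 2 to 4 kb alone. Against regions of 2 to 4 kb, with the centre of the merged region, the difference was -9.61 points (exact permutation test, n = 8, p = 0.00781).

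Broad domains held more than 1 H3K27ac peak on average, and 2 measures of peak strength went in opposite directions. A domain held 1.72 to 2.38 H3K27ac peaks per library where it held any. Ranked within its own list by the authors' fold enrichment, the mean H3K27ac peak in broad domains stood at percentile 60.5 ± 2.77, against 67.4 ± 2.71 in shorter regions (SD, n = 8). The difference of -6.89 ± 1.26 percentile points was negative in 8 of 8 tissues (exact permutation test, p = 0.00781, adjusted p = 0.00938). Taking the strongest peak of each region instead, a choice made after the data were examined, gave 78.6 ± 2.67 against 72.8 ± 2.60. A maximum rises with the number of peaks in a region, so this second comparison favours longer regions by construction and is given without a test. The mean over peaks counts every minor peak of a region in full, so the first comparison also depends on the number of peaks. Neither measure alone shows that H3K27ac was weaker or stronger in broad domains. The replicates of H3K27ac shared more of their length inside broad domains than inside shorter regions, with Jaccard indices (length shared by both divided by length in either) of 0.728 ± 0.053 and 0.692 ± 0.050 (SD, n = 8). The difference of 0.036 ± 0.023 was positive in 8 of 8 tissues (exact permutation test, p = 0.00781, adjusted p = 0.00938). Against regions of 2 to 4 kb it was -0.00667 (exact permutation test, n = 8, p = 0.305, adjusted p = 0.366).

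Each tissue had more H3K27ac in the domains where its H3K4me3 was the broadest than in the domains broadest elsewhere. A single broadest tissue was found for 389 domains: liver in 118, colon in 90, kidney in 64, pancreas in 51, skeletal muscle in 33, stomach in 24, spleen in 7 and heart in 2. Each tissue's H3K27ac cover was compared between the domains broadest in it and those broadest elsewhere, so the length of its list enters both sides. The means were 3.59 ± 0.620 kb and 2.09 ± 0.288 kb (SD, n = 8). The difference of 1.502 ± 0.632 kb was positive in 8 of 8 tissues (exact permutation test, p = 0.00781, adjusted p = 0.00938). The split used H3K4me3 cover, by which the domains were chosen, and 210 of them reached 4000 bp in 1 tissue alone. Domains broadest elsewhere include those with no H3K4me3 in the tissue, which was present in 306 of 390 in skeletal muscle and 331 in colon. The groups thus differ in H3K4me3 by construction, and the test cannot tell its breadth from its presence. In colon the values were 3.99 kb and 2.04 kb, in liver 4.13 kb and 2.48 kb, and in skeletal muscle 3.24 kb and 1.74 kb. Spleen had 4.63 kb in its 7 domains against 1.91 kb elsewhere. Pancreas, with 3.16 kb and 2.39 kb, and kidney, with 2.99 kb and 2.15 kb, had the smallest differences.

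Counted by domain, the broadest tissue was the same for both marks in 208 of 375 domains with 1 broadest tissue in each mark (55.5%), against 45.6% of all merged regions treated alike and 47.9% of those of 2 to 4 kb. This agreement ranged widely. It held for 84 of 113 liver domains (74.3%), 56 of 87 colon domains (64.4%), 26 of 50 pancreas domains (52.0%) and 17 of 33 skeletal muscle domains (51.5%). In kidney it held for 15 of 61 (24.6%) and in stomach for 6 of 23 (26.1%). The tissues also differed in how often they had the broadest H3K27ac of any domain. Liver had it in 123 domains, colon in 91, pancreas in 49, skeletal muscle in 32, and kidney and stomach in 24 each. The agreement was not adjusted for these totals, so its range cannot be read as a difference between tissues alone. Of the 61 kidney domains, 13 had their broadest H3K27ac in liver. Domains broadest in stomach had colon as their broadest H3K27ac tissue in 8 of 23 cases, more than stomach itself. Both heart domains had more H3K27ac in liver or pancreas. When each tissue's cover was reduced to the bases shared by its replicates, 269 domains had the same broadest tissue as before. Skeletal muscle was then broadest in 4 domains, pancreas in 21, liver in 147, colon in 92 and kidney in 70. Heart, whose single library is not reduced, went from 2 to 17.

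**Figure D3:**
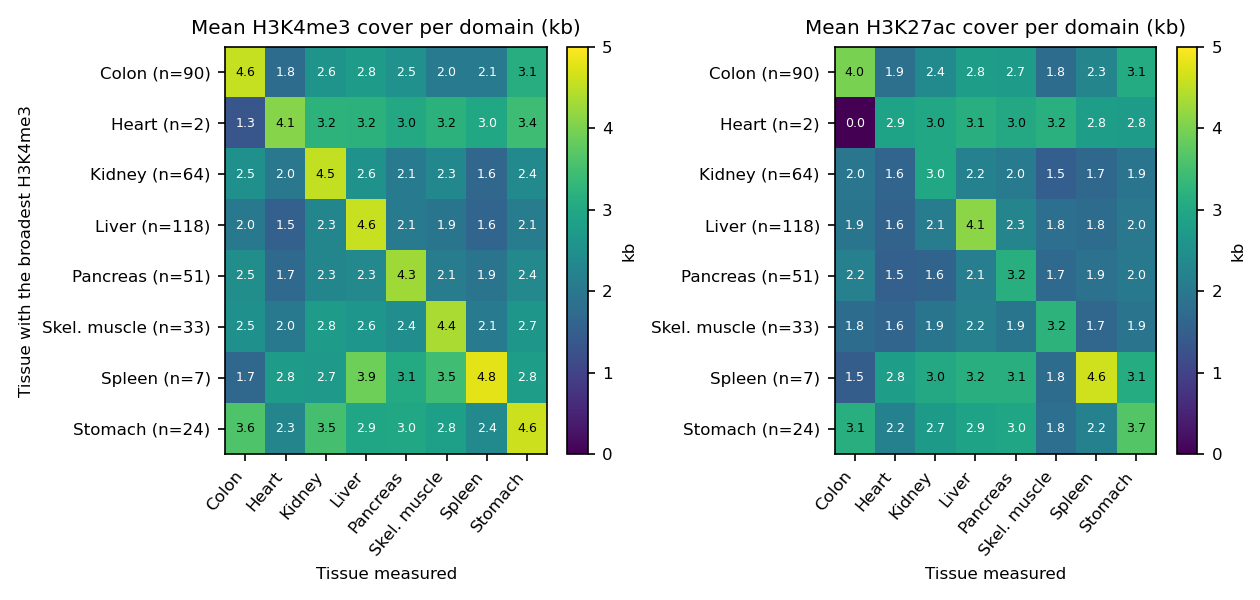
Mean H3K4me3 cover (left) and H3K27ac cover (right) per domain in kb, with domains in rows by the tissue of their broadest H3K4me3 and the tissue measured in columns. The diagonal of the H3K4me3 panel is high by the choice of rows. In the H3K27ac panel the diagonal is the highest value of its row in every tissue except heart, which has 2 domains.

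Bases that gave a domain its extra width in 1 tissue carried less H3K27ac than the bases shared by all tissues, but more than the same bases had in the other tissues on average. This comparison was added after the data were examined, and its p-values are not adjusted. It used the 270 domains with H3K4me3 in all 8 tissues and a single broadest tissue. Shared bases carried H3K4me3 in all 8 tissues and summed to 472 kb. Private bases carried it in the broadest tissue alone and summed to 201 kb. In the broadest tissue H3K27ac lay over 95.8 ± 4.06% of shared bases and 49.3 ± 32.7% of private bases (SD, n = 8). The difference was -46.5 ± 30.996 points, below 0 in 7 tissues and 0 in spleen (exact permutation test, p = 0.0156). On the same private bases the 7 other tissues had H3K27ac over 16.1 ± 16.3% on average. The broadest tissue exceeded them by 33.2 ± 22.5 points, in 7 of 8 tissues (exact permutation test, p = 0.0156). Heart, with 2 domains and 1.15 kb of private bases, was the exception, and spleen rested on 5 domains and 1.57 kb. Private bases lack H3K4me3 in the 7 other tissues by definition. In most domains they lay at the sides, where the average H3K27ac profile was lower than at the centre. Neither contrast can therefore tell extra width from presence of H3K4me3 or from position.

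The tissues differed in how far H3K27ac followed the extra width. Private liver bases were under liver H3K27ac for 82.9% of their length and under that of the other tissues for 15.3%. In colon the values were 64.0% and 23.1%, and in skeletal muscle 53.0% and 6.09%. Stomach had 39.0% and 8.96%, and pancreas 35.0% and 7.33%. The extra width of pancreas and skeletal muscle rested largely on H3K4me3 replicate 2. By the bases shared between replicates, pancreas was broadest in 21 domains instead of 51, and skeletal muscle in 4 instead of 33. In kidney 20.4% of private bases were acetylated in kidney and 12.1% in the other tissues on average, of which the highest had 23.2%. The reproducible H3K27ac maps also differed in length, with 43.6 Mb in liver, 33.1 Mb in colon and 28.5 Mb in pancreas. Skeletal muscle had 26.0 Mb, stomach 24.3 Mb and kidney 21.7 Mb. Liver and colon thus had the highest shares and the longest maps, and the part of map length was not tested. The private bases lay on 1 side of the domain in 175 domains and on both sides in 66.

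**Figure D4:**
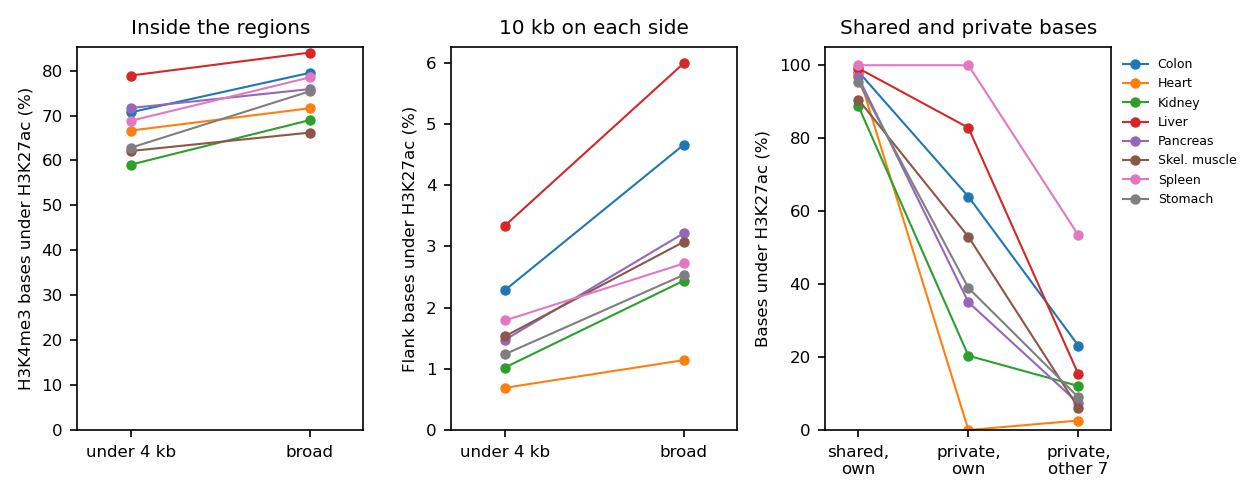
H3K27ac in and around broad domains, 1 line per tissue. Left, share of H3K4me3 bases under H3K27ac (%) in regions under 4 kb and in broad domains; middle, share of flank bases under H3K27ac (%); right, H3K27ac on bases with H3K4me3 in all tissues and on bases private to the broadest tissue, measured in that tissue, and on the private bases in the 7 other tissues. Lines rise in the left and middle panels in 8 of 8 tissues, and the right panel runs down from shared to private bases in 7.

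The 10 longest domains showed several patterns. The second longest, 7902 bp on chromosome 4 (134621831 to 134629732), was broadest in colon, with 7503 bp and 7613 bp of H3K4me3 in the replicates, and in kidney, with 6980 bp and 6428 bp. H3K27ac covered 6973 bp and 3617 bp of it in colon and 6710 bp and 6785 bp in kidney. The domain was therefore wide in both marks in kidney, whereas the colon replicates differed in H3K27ac. On chromosome 12 (48620316 to 48627826) 7511 bp were joined from pieces of at most 3876 bp. Kidney covered 7142 bp of it and stomach 6652 bp, and spleen had 1667 bp.

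The fourth longest, on chromosome 5 (87362818 to 87370287), was acetylated in kidney. H3K4me3 covered 7033 bp and 6686 bp in the kidney replicates and at most 4542 bp in any other library (skeletal muscle replicate 2). H3K27ac covered 7016 bp and 6016 bp in kidney. In other tissues 3 libraries held H3K27ac, with 339 bp in colon, 1111 bp in heart and 324 bp in stomach, and none of it recurred in the other replicate. H3K4me3 was thus present in 7 tissues and reproducible H3K27ac in 1.

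On chromosome 15 (56835718 to 56843121) both marks were wide everywhere. H3K4me3 covered 7388 bp in liver and 3847 bp in pancreas, the highest and lowest tissues. H3K27ac lay between 5494 bp in heart and 7343 bp in liver, with a mean of 6503 bp over tissues that was the highest of all 390 domains. Domains on chromosome 13 (54351402 to 54357874), chromosome 22 (3717524 to 3724460), chromosome 4 (45118308 to 45124605) and chromosome 2 (13737533 to 13743082) followed, with mean H3K27ac covers of 6062, 6035, 5278 and 5209 bp. The domain on chromosome 22 was wide in H3K27ac in all tissues, from 4739 bp in spleen, but in H3K4me3 it ranged from 1408 bp in spleen to 6740 bp in colon.

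The domain on chromosome 11 (121163747 to 121171041) had the opposite form. H3K4me3 covered at least 4515 bp in each of the 8 tissues, up to 7241 bp in kidney, while H3K27ac covered 1749 bp in skeletal muscle to 2796 bp in spleen. H3K4me3 was wider than H3K27ac in all 8 tissues there. It was one of the 7 domains with 4000 bp or more in every tissue, as was the domain on chromosome 13. The domain on chromosome 14 (40441547 to 40448592) was broadest in pancreas in both marks, with 6030 bp of H3K4me3 and 6206 bp of H3K27ac. On chromosome 6 (143314830 to 143321736) liver had 6832 bp of H3K4me3 and 6907 bp of H3K27ac. The next highest tissue was skeletal muscle, with 2937 bp and 4522 bp.

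The longest domain, 10945 bp of unplaced sequence (1266 to 12210), had H3K4me3 in most tissues and reproducible H3K27ac in spleen alone, over 817 bp. It differed between replicate numbers. H3K4me3 covered 0 bp and 7354 bp in colon, 0 bp and 9940 bp in skeletal muscle, 3611 bp and 10417 bp in pancreas, 2931 bp and 10285 bp in stomach, 5891 bp and 10508 bp in liver, 3838 bp and 7987 bp in spleen, and 5722 bp and 6195 bp in kidney for replicates 1 and 2. H3K27ac was called there in replicate 2 of kidney (10518 bp) and pancreas (9803 bp) and in replicate 1 of neither. The eighth longest, also unplaced (3301 to 10332), had H3K27ac of 6810 bp in kidney replicate 2 and 6636 bp in pancreas replicate 2, again with none in replicate 1. Reproducible H3K27ac was found there in spleen, over 4843 bp, and in stomach, over 2140 bp.

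**Figure D5:**
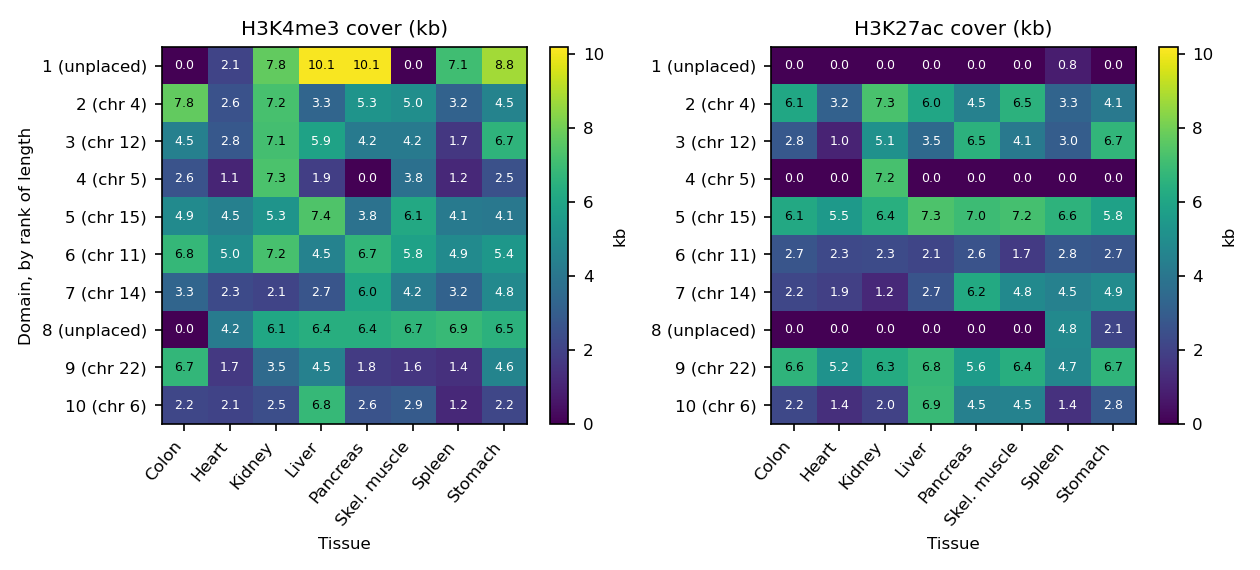
H3K4me3 cover (left) and H3K27ac cover (right) in kb of the 10 longest domains, in rows by rank of length, across the 8 tissues in columns. Domains 1 and 8 lie on unplaced sequence and have H3K4me3 in most tissues with reproducible H3K27ac in 1 and 2 of them, and domain 4 has reproducible H3K27ac in kidney alone.

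The domains with the largest excess of 1 tissue over the next were chosen for that excess, so their H3K4me3 is a description. In liver the first, on chromosome 10 (120196403 to 120203200), had 3982 bp and 6724 bp of H3K4me3 in the liver replicates. The only other H3K4me3 library with a peak was pancreas replicate 2, with 2288 bp. H3K27ac covered 4241 bp and 5062 bp in liver and 1202 bp and 2223 bp in pancreas. The second, on chromosome 15 (25376299 to 25382104), had 5127 bp and 5748 bp of H3K4me3 in liver and 5244 bp and 5680 bp of H3K27ac. H3K27ac was also reproducible there in colon, kidney and skeletal muscle, without reproducible H3K4me3.

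In colon the first was on chromosome 22 (34680431 to 34686483), with 5592 bp and 5947 bp of H3K4me3 and 3708 bp and 3263 bp of H3K27ac. Stomach was the only other tissue with either mark in it, with 1466 bp and 1916 bp of H3K4me3. The second, on chromosome 15 (71967657 to 71971785), had 4129 bp and 3787 bp of H3K4me3 and 2102 bp and 1943 bp of H3K27ac in colon, and neither mark in any library of the other tissues. These values show colon domains in which H3K27ac was narrower than H3K4me3 in both replicates.

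In kidney the first was on chromosome 12 (105281371 to 105285944), with 3971 bp and 4574 bp of H3K4me3 and 4170 bp and 4231 bp of H3K27ac, and the second was the domain on chromosome 5 described above. In spleen the first was also on chromosome 12 (88431596 to 88435822), with 3761 bp and 3517 bp of H3K4me3 and 4227 bp and 3628 bp of H3K27ac. In pancreas the domain on chromosome 8 (115873075 to 115878711) had 4784 bp and 5637 bp of H3K4me3 and 4103 bp and 4577 bp of H3K27ac. All 3 were wide in both marks and in both replicates of their tissue.

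Other domains of this kind rested on 1 replicate. The first pancreas domain, on chromosome 12 (19930631 to 19936465), had 1202 bp of H3K4me3 in replicate 1 and 5835 bp in replicate 2, with 1587 bp and 1892 bp of H3K27ac. In skeletal muscle the domain on chromosome 6 (49068730 to 49073296) had 359 bp and 4567 bp of H3K4me3, and that on chromosome 4 (11310076 to 11315465) 974 bp and 5390 bp. Their H3K27ac was 3508 bp and 1850 bp, and 4270 bp and 3785 bp. Replicate 1 was the low H3K4me3 library in each, and these are the short lists of the mark. H3K27ac was present in both muscle replicates of both domains.

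The stomach domains differed in H3K27ac. On chromosome 1 (9829867 to 9833957) H3K4me3 covered 3594 bp and 4018 bp in stomach, and H3K27ac covered 2600 bp and 2922 bp there and nothing in the 14 libraries of other tissues. On chromosome 7 (25076739 to 25081114) stomach had 3207 bp and 3751 bp of H3K4me3 and no H3K27ac in either library. H3K4me3 was present in all 8 tissues of that domain, and reproducible H3K27ac was found in liver alone, over 837 bp. In heart, with its 1 library, the excess was small: 4010 bp against 3156 bp in the next tissue on chromosome 16 (61126168 to 61130409), and 4168 bp against 4116 bp on chromosome 14 (95832878 to 95837467). The second spleen domain, on chromosome 6 (75008582 to 75013575), had 4901 bp against 4455 bp.

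Domains with H3K4me3 in 1 tissue alone had H3K27ac there about as often as shorter regions of 2 to 4 kb. Of the 27, 26 (96.3%) had reproducible H3K27ac in that tissue, against 55.1% of all merged regions with H3K4me3 in 1 tissue and 95.2% of those of 2 to 4 kb. In 17 (63.0%) no other tissue had it, against 28.1% and 66.9%. In 22 (81.5%) H3K27ac covered at least 50% of the H3K4me3 length, against 52.5% and 85.8%. Liver held 16 of them, with median covers of 4448 bp for H3K4me3 and 4332 bp for H3K27ac in liver. Pancreas held 6, colon 3, and skeletal muscle and spleen 1 each.

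A few domains were wide in H3K4me3 with little or no H3K27ac. Among 610 combinations of a domain and a tissue with at least 4000 bp of H3K4me3, 21 had no reproducible H3K27ac in that tissue. Shorter regions cannot hold such a cover, so these counts and shares describe the domains with no comparison class beside them. The 21 came from 12 domains and included 6 in pancreas, 5 in skeletal muscle and none in colon or spleen. The unplaced domains of 10945 bp and 7032 bp gave 9 of the 21, among them the only one in heart, 2 of 3 in kidney and 2 of 3 in liver. On assembled chromosomes 12 remained, 4 each in pancreas and skeletal muscle. H3K27ac lay over at least 50% of the H3K4me3 bases in 96.7% of the colon domains of this width, 96.4% of spleen, 93.9% of liver, 89.4% of stomach, 85.7% of heart, 83.6% of pancreas, 78.6% of kidney and 74.2% of skeletal muscle. Summed over tissues, the ratio of H3K27ac to H3K4me3 cover had a median of 0.900 over domains, exceeded 1 in 113 and was below 0.25 in 15.

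The domains were spread over the genome. Of the 390, 12 lay within 100 kb of another domain. No share over other regions stands beside this count, so it shows no trait particular to the domains. The median gap to the nearest merged H3K4me3 region was 32.1 kb, against 30.8 kb for regions of 2 to 4 kb. They made up 3.303% of the merged regions of chromosome 18 and 3.18% of those of chromosome 19, the highest shares of any chromosome, with 18 and 15 domains. On chromosome X the share was 0.58%, with 4 domains among 685 regions, and on chromosome 22 it was 0.95%. Chromosome Y held 24 merged regions and no domain. Unplaced sequence held 10 domains, 2.56% of them, against 4.86% of all merged regions and 2.57% of those of 2 to 4 kb.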

How the data were processed

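Each ChIP library came with its own narrowPeak list, called per sample. The tools in the submitters' processing notes, given with no role, are MACS2 2.1.1.20160309, bedtools 2.26, SAMtools 1.3.1 and Bowtie 1.1.2. Peak names carry calJac3. How input was used is not given in any source read here. The deposited fold enrichment is a ratio and was ranked within 1 list. The deposited −log10 p and −log10 q values served alternatives, and the deposited score was not used.

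Reproducible regions were peaks of either replicate overlapping the other by 1 bp, merged. Regions that only touched were not joined. Intervals were handled in Python 3.11.15 with numpy 2.4.6 and scipy 1.17.1, and figures drawn with matplotlib 3.10.9. The code was tested on simulated data. Tissues were the units of two-sided exact sign-flip permutation tests, with Benjamini-Hochberg adjustment over 6 results. Flanks ended at the last peak of a sequence. Regions were named by rule: the 10 longest, the 2 per tissue with the largest excess over the next tissue, the 5 with most H3K27ac, 5 without H3K27ac (none existed) and the 2 on each side of the threshold. Domains, lists and tests were chosen with earlier results of these data known. The 8 input samples are not analysed here.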

Additional observations from a re-analysis of the deposited data

How the results depend on the processing

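The number of domains was 1465 at a threshold of 3 kb and 90 at 5 kb. Leaving out 1 library gave 316 (liver H3K4me3 replicate 2) to 407 domains (skeletal muscle H3K4me3 replicate 1). The H3K27ac difference between domains broadest in a tissue and those broadest elsewhere kept direction and threshold in all alternatives run. So did the flank difference and both contrasts of private bases. The share of H3K4me3 bases under H3K27ac did so except against regions of 2 to 4 kb (0.31 points). The Jaccard difference was 0.0177 for domains of 5 kb or more (exact permutation test, n = 8, adjusted p = 0.141) and -0.00667 against regions of 2 to 4 kb. The strength difference was 5.80 percentile points with the strongest peak of each region, a measure that rises with the number of peaks. The share at the centre was least stable. It was 6.01 points at 3 kb, 6.41 with the 20000 strongest peaks, 5.78 with the central 1000 bp and 10.5 at the tissue's own centre, all past the threshold. It was -2.81 at 5 kb, -3.99 with bases in both replicates, -3.78 with H3K27ac of either replicate, -2.67 with unbroken domains and -9.61 against regions of 2 to 4 kb, of which -3.78 and -9.61 passed the threshold. Leaving out 1 library gave -0.81 to 2.16, below 0 without colon H3K4me3 replicate 2 (-0.81), liver H3K27ac replicate 1 (-0.77), kidney H3K27ac replicate 1 (-0.22) or liver H3K4me3 replicate 2 (-0.18). The cause was not tested. With the replicate number as a block it was -2.05 and the H3K4me3 base share 7.42, and the block changed no other direction or call. The numbers were not taken to pair the libraries, since the correlation over domains of the replicate differences of the 2 marks was not above 0.1 in every tissue: it was -0.06 in skeletal muscle, 0.07 in kidney and 0.21 to 0.53 in the other 5. Without the short H3K4me3 lists of pancreas and skeletal muscle, an alternative chosen after seeing the data, there were 409 domains, which met 387 of the 390, and the base share difference was 8.70 points. Depth is unknown, so a list's length limits what can be compared between tissues.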

Other observations

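Colon had the broadest H3K4me3 in 90 domains, second to liver, and 99 of the 390 had no reproducible H3K27ac in colon. That number was 126 in skeletal muscle, 118 in heart, 116 in spleen, 86 in stomach, 72 in pancreas, 66 in kidney and 59 in liver. Many of the 99 lacked H3K4me3 in colon as well: it was present there in 331 domains, of which 44 had no reproducible H3K27ac. Of the 122 domains with at least 4000 bp of H3K4me3 in colon, 0 lacked it. Of the domains acetylated in 7 tissues, colon was the one without H3K27ac in 13, skeletal muscle in 10, spleen in 5, and heart and stomach in 2 each. No share over all merged regions stands beside these counts, so they describe the domains and show no trait particular to them. On chromosome 14 (95832878 to 95837467) H3K27ac covered 2426 to 3233 bp in the 14 libraries of other tissues, 730 bp in colon replicate 2 and nothing in colon replicate 1. On chromosome 6 (75008582 to 75013575) colon replicate 2 had 1325 bp, replicate 1 nothing, and the other libraries 2537 to 4956 bp. H3K4me3 was present in both colon replicates of both domains, over 300 bp and 1917 bp and over 782 bp and 1810 bp.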
